A study of Sus scrofa with 12 samples.

Results

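A microRNA (miRNA) is a small RNA of the cell that pairs with messenger RNAs through its seed, the bases 2 to 8 from the 5′ end, and lowers their translation and stability. Copies of 1 miRNA often differ at the 3′ end by a few bases, because the precursor is cut at neighbouring positions, because the end is trimmed, or because enzymes add A or U after cutting. Such length forms keep the seed of the annotated miRNA, and are counted apart from it or with it depending on how reads are assigned. Length forms were examined here in small RNA libraries of pig liver. Bama and Hezuo pigs, each with 3 libraries at 23 ± 2 °C and 3 under cold stress at -15 ± 2 °C, were sampled on day 15. The sources used here give no age, sex, litter or batch, and do not say whether pig number 1 at both temperatures is 1 animal. Each of the 12 libraries was taken as a pig of its own, and where that is wrong, p-values cover only the spread between these libraries.

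The table of counts held 774 miRNA entries. Of these, 303 were annotated in the pig, 379 carried the names of miRNAs known from other species, and 92 were predicted. A length form was an entry named after other species whose first 16 bases equal those of an annotated porcine entry. There were 144 such entries after 18 more of other miRNA numbers were left out, and 217 entries named after other species shared no start with a porcine one. The 144 forms paired with 110 annotated miRNAs, of which 30 had at least 2 forms. In 23 cases several annotated entries shared the start, and the form was set beside the one with the longest identical stretch. Ties were settled by the same miRNA number, then by the first listed. The forms took 1.81 to 2.30% of all listed counts in a library. Most of that was 2 entries, miR-122-x with 41.2 to 58.2% of the forms' counts and let-7-x with 25.6 to 33.8%. The listed counts came to 7184168 to 10384074 per library. The hepatocyte miRNA miR-122 (both strands) held 42.8 to 57.1% of them, which fits the labelled tissue. Its share was 49.9 to 56.2% in normal and 46.8 to 50.03% in cold Bama, and 51.5 to 57.1% in normal and 42.8 to 48.3% in cold Hezuo, without overlap in Hezuo.

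The sequences behind the main results follow, each form above its annotated entry, as DNA letters 5′ to 3′ from the deposited table. Capitals mark the seed and, at the 3′ end, the bases that the form and the annotated entry do not share.
miR-122-x: tGGAGTGTgacaatggtgtttgAT
ssc-miR-122-5p: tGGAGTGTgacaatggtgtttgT
let-7-x: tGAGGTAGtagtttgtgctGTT
let-7-z: tGAGGTAGtagtttgtgctGTTAT
ssc-let-7i-5p: tGAGGTAGtagtttgtgct
miR-340-x: tTATAAAGcaatgagactgaAA
ssc-miR-340: tTATAAAGcaatgagactgaTT
miR-30-x: tGTAAACAtcctcgactggaagCA
ssc-miR-30a-5p: tGTAAACAtcctcgactggaag
miR-21-x: tAGCTTATcagactgatgttgaCA
ssc-miR-21-5p: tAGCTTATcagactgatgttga
miR-210-z: cTGTGCGTgtgacagcggctgaAA
ssc-miR-210: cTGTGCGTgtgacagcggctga
The pairs show the 2 common kinds. In miR-21-x, miR-30-x and miR-210-z the whole annotated sequence is followed by a pair of further bases. In miR-340-x the annotated end is missing and other bases stand in its place. MiR-122-x has AT where miR-122-5p has T, which can also be read as an inserted A. The let-7i pair differs in another way: the annotated porcine let-7i-5p is listed with 19 bases, and let-7-x carries the 3 further bases that complete the let-7i known from human.

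In 97 forms the annotated sequence was extended. In 34 the shared start stopped 1 to 3 bases before the annotated end and other bases followed, here called a replaced end. This kind rests on the shared start alone. A base inserted or missing near the end therefore also falls here, as miR-122-x and miR-148-y can be read. The remaining 13 lacked 4 or more annotated bases, so for these the name length form does not hold. Length differences ran from -4 to 5 nt: 121 forms were longer than the annotated entry, 12 equally long and 11 shorter. A gain of 2 nt was the most frequent, in 76 forms, followed by 1 nt in 23 and 3 nt in 18. No form was simply a shortened annotated sequence, and none had fewer than 2 bases beyond the shared start. The same held for all 162 entries named after other species that shared a start with a porcine entry, before any was left out. Variants that are only trimmed, or that only add 1 base after the annotated end, therefore have no entry of their own among them. How reads of such variants were counted is not given in the sources used here.

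**Figure D1:**
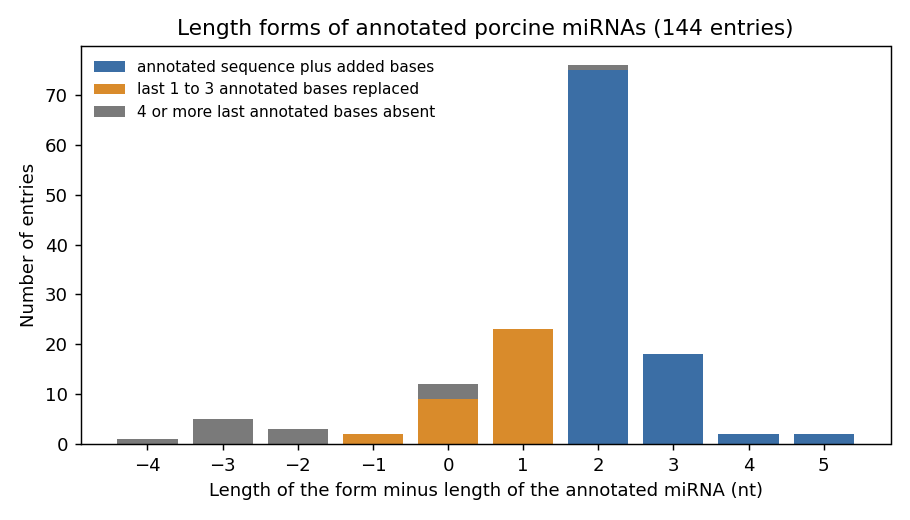
Number of entries (y axis) by length of the form minus length of its annotated miRNA in nt (x axis), for all 144 forms, coloured by kind. The bar at 2 nt holds 76 forms, and shorter forms are few.

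The 3′ ends of the forms were rich in A and T. The last base was A in 45.8% and T in 49.3% of the 144 forms, which makes 95.1% together. Of the 110 annotated miRNAs they pair with, 59.1% ended in A or T, of all 303 annotated entries 58.4%, and of the 217 other entries named after other species 66.4%. Among the 97 extended forms, TT was added in 19, AA in 17 and TA in 10. The bases beyond the shared start were only A in 33 of the 144 forms, only T in 32, a mixture of A and T in 30, and included C or G in 49. Without a genome or the hairpins, bases copied from the precursor and bases added later cannot be told apart.

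Forms were listed more often for abundant miRNAs. Of 291 annotated entries considered, the 110 with a form had a median total of 5272 counts over the 12 libraries, and the 181 without one had 254. Among the 50 most abundant annotated entries 31 had a form, against 4 of the 50 least abundant. Across the 144 pairs the totals of form and annotated entry correlated at a Spearman's rho of 0.452 (a description; both totals come from the same libraries, and several pairs share an entry). Total counts of the forms ran from 7 to 998391. A total of 80 forms passed the filter on low counts (edgeR's filterByExpr, 56 extended, 18 with a replaced end and 6 of the remaining kind), and 64 failed it, with totals of at most 97. The results below are on those 80.

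Abundance was read as CPM, the counts brought to a common library size and scaled between libraries with the TMM method. Only 3 forms had a mean of at least 1000 CPM over the 12 libraries, and 10 had at least 100. The highest was miR-122-x, a form of the miRNA that dominates liver and acts in lipid metabolism, at 10160 CPM (7674 to 13810). It was followed by let-7-x at 6049 CPM (5360 to 7035), from the let-7 family that holds back growth genes. MiR-21-x, a form of the injury and growth associated miR-21, reached 1349 CPM (650 to 2190). Below these, miR-143-y stood at 507 CPM, miR-30-x at 380, miR-27-y at 362, miR-99-z at 272, miR-151-y at 269, miR-148-y at 260 and miR-10014-x at 110. The last of the 12 highest were miR-30-y at 77.9 CPM and miR-26-x at 74.9.

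How much a form contributed was read as its share of the counts of form and annotated entry together, which needs no scaling between libraries. Over the 80 pairs the median share was 5.42%, and the pairs spread from 0.00541% to 97.0%. The share was below 1% in 19 pairs, 1 to 10% in 37, 10 to 50% in 17 and above in 7. In 71 pairs the annotated entry outnumbered the form in every library. The form outnumbered it in all 12 libraries in 4 pairs, and the other 5 pairs were mixed.

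Of the 4 pairs led by the form, let-7-x is the clearest in its sequence. It made up 96.2 to 97.7% of the let-7-x and 19-base let-7i-5p counts, and the groups overlapped throughout. MiR-210-z, the form of the oxygen-responsive miR-210 with an added AA, made up 81.5 to 94.1%, on counts of 44 to 191 per library against 5 to 15 for the annotated entry. The other 2 are entries set beside miR-141, an epithelial miRNA of the miR-200 family:
miR-200-y: tAACACTGtctggtaaCGATGTT
miR-141-y: tAACACTGtctggtaaCGATA
ssc-miR-141: tAACACTGtctggtaaAGATG
Both depart from miR-141 right after the first 16 bases, and miR-200-y begins with the sequence known in human as miR-200a-3p, a separate gene of the same family. MiR-200-y held 91.0 to 97.9% of its pair and miR-141-y 54.3 to 90.7%. Their share thus sets a relative beside miR-141 and is no measure of its length.

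Mixed pairs were miR-23-z beside miR-23b, with the form ahead in 11 of 12 libraries (49.9 to 64.6%), miR-15-x beside miR-15a in 10 (42.9 to 80.0%) and miR-331-y beside miR-331-3p in 9 (36.4 to 68.4%). MiR-127-y beside miR-127 and miR-223-y beside miR-223 led in 1 library each. MiR-223-y had only 100 counts in all 12 libraries together, just over the filter.

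At the other end stood forms of the most abundant annotated miRNAs. MiR-148-z, which adds TA to miR-148a-3p, had a median share of 0.00541%, although miR-148a-3p had 24910368 counts. MiR-26-z beside miR-26a was at 0.00921%. The next 3 were of the kind that lacks 4 or more annotated bases:
miR-10014-x: tGGAGTGTgacaatggtAAA
miR-98-x: tGAGGTAGtaggttgtaGT
miR-5991-z: tGAGGTAGtaggttgtGTT
ssc-let-7a: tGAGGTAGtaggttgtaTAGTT
MiR-10014-x begins as miR-122-5p and had a median share of 0.0204% beside it. MiR-98-x and miR-5991-z begin as let-7a and had 0.0274% and 0.0317%. Another annotated entry has the same first 16 bases, and for miR-5991-z let-7a was taken only as the first listed. In the printed let-7a the capitals at the end are the bases that miR-98-x lacks. MiR-503-x beside miR-503, which is of the same kind, had a median share of 15.9%.

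**Figure D2:**
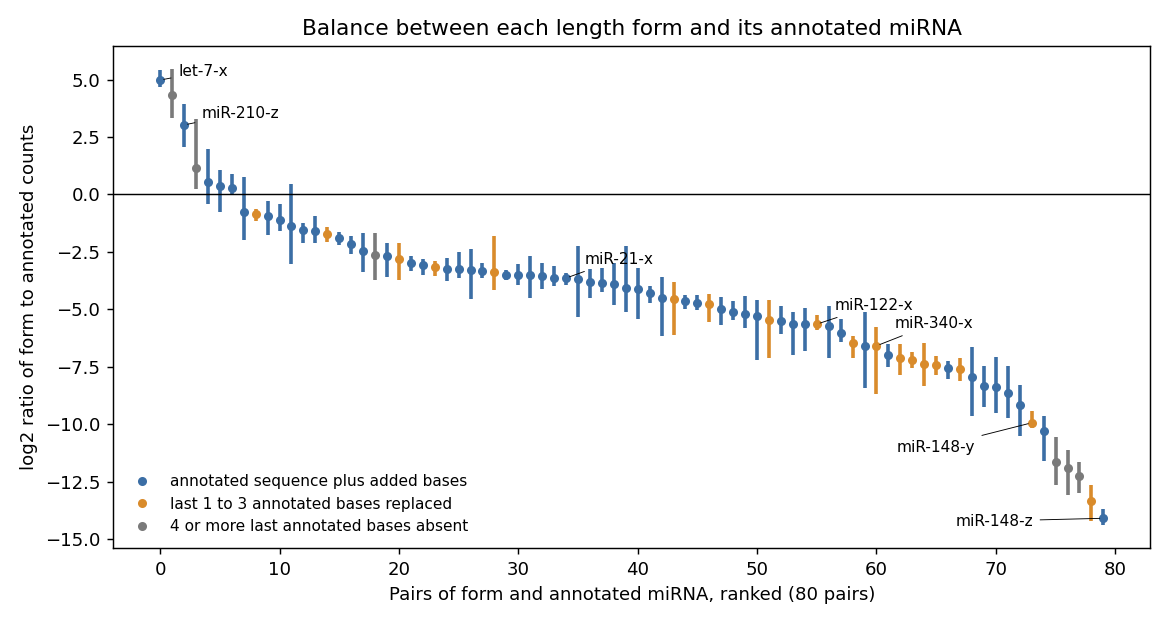
Log2 ratio of form to annotated counts (y axis) for the 80 pairs that passed the filter, ranked by their mean over 12 libraries (x axis). Points are means, bars run from the lowest to the highest library, and the line at 0 marks equal counts, above which 4 pairs stay in all 12 libraries.

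Between libraries of 1 group the log2 ratio of a pair had a median SD of 0.384, from 0.0738 for miR-30-x to 1.13 for miR-223-y. MiR-200-y, with 5516 counts, had an SD of 0.577. The abundant pairs named next were below the median SD, except miR-143-y (0.443). MiR-30-x stayed at 7.04 to 9.30% of its pair with miR-30a-5p, miR-122-x at 1.64 to 2.54% and miR-21-x at 6.08 to 8.53%. MiR-30-y, in which the last base of miR-30e-3p is replaced, stayed at 30.6 to 39.3%. MiR-27-y beside miR-27b-3p held 14.2 to 22.1%, miR-151-y beside miR-151-3p 7.85 to 11.7% and miR-99-z beside miR-99a-5p 2.93 to 4.61%. MiR-143-y beside miR-143-3p varied more, from 1.77 to 4.47%, and miR-26-x held 0.374 to 0.645% and miR-148-y 0.0855 to 0.145%.

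Entries of identical sequence did not always have identical counts. MiR-106-x and miR-20-x are both listed with the letters below, yet had 4470 and 2131 counts in all.
miR-106-x: tAAAGTGCttatagtgcaggtaGA
miR-20-x: tAAAGTGCttatagtgcaggtaGA
ssc-miR-20a-5p: tAAAGTGCttatagtgcaggta
MiR-98-x and miR-6134-z also share a sequence, with 109 and 37 counts. An entry's count can therefore cover other reads than its listed sequence, and a share is a ratio between entries and not between exact molecules.

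The cold comparison asked whether forms changed with temperature. The share of miR-122 in the listed counts, given above, was lower in cold than in normal Hezuo libraries, and its part in the cold values was not tested. In abundance no form passed in either breed or averaged over both (edgeR's quasi-likelihood test, Benjamini-Hochberg adjusted p below 0.05 over 460 entries). The count was 0 of 80 in Bama, where 1.09% of all 460 entries passed, 0 in Hezuo, where 0.0% passed, and 0 averaged over breeds, where 2.17% passed. Unadjusted p-values below 0.05 were found for 7, 6 and 9 of the 80 forms, beside 67, 43 and 82 of all 460 entries. DESeq2 called 1, 0 and 4 forms, and its share of calls over all entries is not given here. For the difference of the cold response between breeds no form passed, with 0.0% of all entries called and 0 forms called by DESeq2. Of the forms 1 had an unadjusted p below 0.05, beside 25 of all 460 entries.

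In the balance between form and annotated entry, 1 pair passed the test with cold, on 2 to 27 counts of the form per library. The share of miR-340-x in its pair with miR-340 was higher under cold in Bama and averaged over breeds (limma on the log2 ratio, adjusted over all 119 pairs of the table that share a start). That is 1 of 80 pairs in Bama, where 1.68% of the 119 passed, and 1 of 80 averaged over breeds, where 2.52% passed, so the forms were called no more often than such pairs in general. Both calls were lost without certain single libraries, and the averaged one with a replicate block, as given below. In Hezuo alone 0 pairs of forms passed, where 0.84% of the 119 passed, and limma without a trend called 0 pairs of forms. Unadjusted p-values below 0.05 were found there for 7 of the 80 pairs and 12 of the 119. For the difference between breeds 0 passed too, where 0.0% of the 119 passed, and limma without a trend called 0 pairs of forms. Unadjusted p-values below 0.05 were found for 4 of the 80 pairs and 4 of the 119.

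MiR-340-x differs from miR-340, a miRNA best known in human as a brake on tumour cell growth, only in its last pair of bases. Its counts were 3, 6 and 2 in Bama at normal temperature, 17, 14 and 9 in Bama under cold, 23, 17 and 11 in Hezuo at normal temperature and 22, 24 and 27 in Hezuo under cold. Its share was 0.305, 0.664 and 0.196% in normal Bama and 1.52, 1.69 and 1.36% in cold Bama. It was 1.29, 0.943 and 0.917% in normal Hezuo and 1.77, 1.54 and 1.52% in cold Hezuo. In both breeds each cold library lay above each normal one. The log2 ratio rose by 2.01 in Bama (SE 0.45, limma adjusted p = 0.0278) and by 1.32 averaged over breeds (SE 0.32, limma adjusted p = 0.0201). In Hezuo it was 0.62 higher (limma adjusted p = 0.706), and the difference between breeds was -1.39 (SE 0.64, limma adjusted p = 0.81). These calls rest on few counts: the Bama call was lost without any 1 of 6 libraries (Bama normal 1 or 3, Bama cold 1, 2 or 3, or Hezuo cold 1; adjusted p up to 0.103). The averaged call was lost without any 1 of 7 (Bama normal 1 or 3, Bama cold 1 or 2, Hezuo normal 3, or Hezuo cold 1 or 2; adjusted p up to 0.0745) and with a replicate block (0.0507).

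Other forms missed the threshold under cold. MiR-21-x had 1071 ± 115 CPM in normal and 1649 ± 643 in cold Bama, and 932 ± 245 in normal and 1743 ± 587 in cold Hezuo (SD, n = 3). In each breed 2 cold libraries lay above every normal one and the third did not, so the groups overlapped. The averaged log2 difference was 0.76 (SE 0.24, edgeR adjusted p = 0.172), beside 0.49 for miR-21-5p itself (SE 0.20, edgeR adjusted p = 0.229). The log2 ratio of the pair was 0.24 higher under cold (limma adjusted p = 0.183). MiR-10014-x had a log2 ratio to miR-122-5p of -0.32 under cold relative to normal (limma adjusted p = 0.356), and miR-99-z one of 0.26 (limma adjusted p = 0.239).

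**Figure D3:**
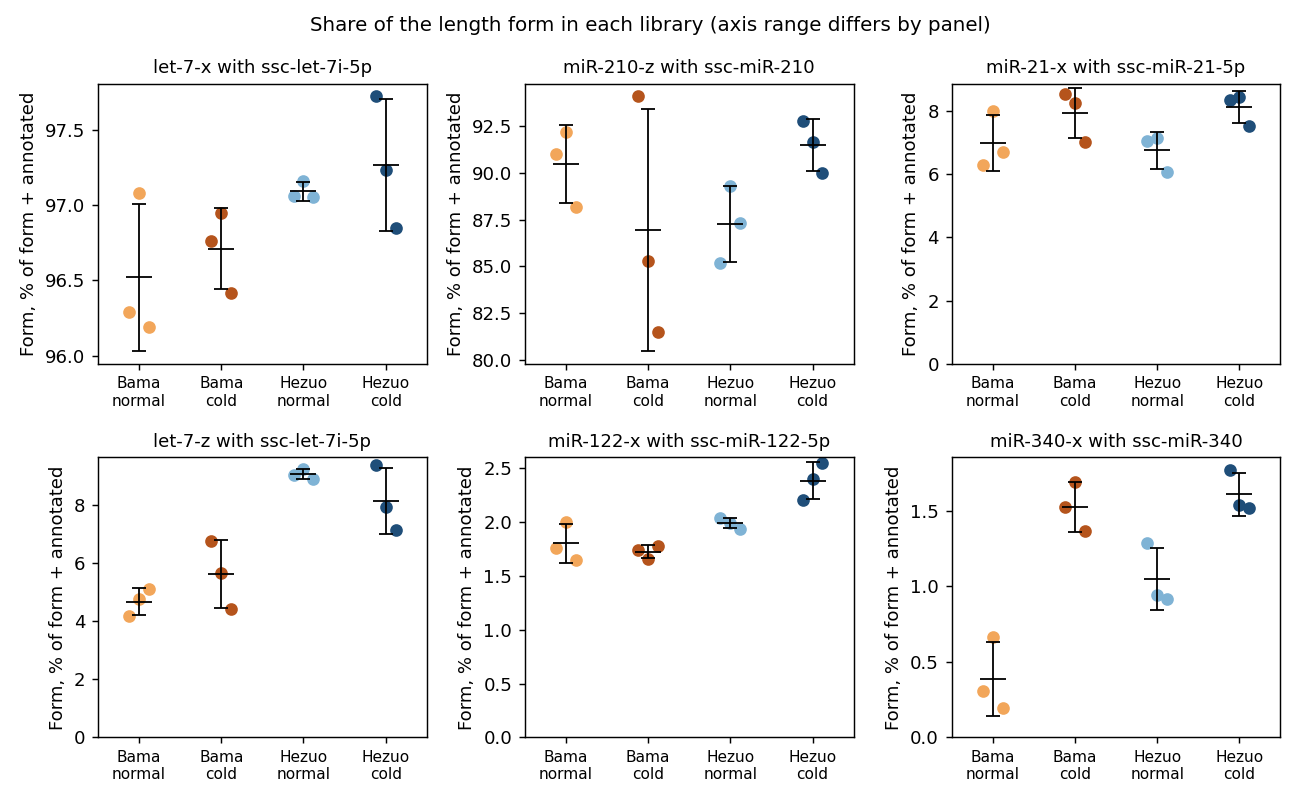
Share of the form in the counts of form plus annotated entry (y axis, %, range differs by panel) in each library of the 4 groups (x axis). Points are libraries, and the bar and whiskers the mean and SD (n = 3); each cold library of miR-340-x lies above each normal one of its breed, let-7-z lies higher in Hezuo at both temperatures, and miR-122-x lies higher in Hezuo under cold and overlaps at normal temperature.

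The breed comparison set Hezuo against Bama at each temperature. At normal temperature 2 of 80 forms were more abundant in Hezuo and none less, where 3.7% of the 460 entries passed in either direction and 2.61% as higher. Both were forms already described. MiR-340-x had 0.477 ± 0.266 CPM in Bama and 1.98 ± 0.728 in Hezuo (SD, n = 3), and its log2 difference was 2.01 (SE 0.48, edgeR adjusted p = 0.0342). MiR-30-x, from a family abundant in liver and epithelium, had 275, 328 and 317 CPM in Bama and 450, 403 and 417 in Hezuo. Its log2 difference was 0.47 (SE 0.12, edgeR adjusted p = 0.0437).

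The annotated partners moved the same way without passing: miR-340 differed by 0.53 (edgeR adjusted p = 0.0826) and miR-30a-5p by 0.24 (edgeR adjusted p = 0.175). Both calls of forms were fragile. The one of miR-30-x was lost without any 1 of 11 libraries (all but Hezuo normal 2; adjusted p up to 0.206), and with library totals as the scale (0.252). The one of miR-340-x was lost without any 1 of 5 (Bama normal 1 or 3, Bama cold 1, or Hezuo normal 1 or 3; adjusted p up to 0.13) and with library totals (0.0558). With a block on the library number, which joins different pigs of both breeds, both were lost (edgeR adjusted p = 0.068 and 0.0535). Under cold no form passed (0 of 80, where 4.35% of the 460 entries passed), and DESeq2 called 0 forms. Unadjusted p-values below 0.05 were found under cold for 8 of the 80 forms and 69 of the 460 entries. There the annotated miR-340 itself was higher in Hezuo by 0.88 (SE 0.17, edgeR adjusted p = 0.011).

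Beside these breed values, summed stromal miRNAs (10 entries of miR-143, miR-145, miR-199 and miR-214, none at 0) took 2.21 to 3.09% of the listed counts in normal Bama and 1.60 to 2.04% in normal Hezuo. Under cold they took 1.98 to 2.91% and 1.96 to 2.28%. Of these entries miR-143-3p alone had 1823692 counts over all libraries, beside 65175 for miR-199a-3p, so the sum mainly follows miR-143-3p. Directions of the single entries are not given here. Listed counts were 7376256 to 7640451 in normal Bama and 8357067 to 10384074 in normal Hezuo. Their part in the breed differences was not tested. In bulk liver, fewer cells of a type and less RNA per cell cannot be told apart.

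In the ratios, let-7-z was higher in Hezuo at normal temperature and miR-122-x under cold, each 1 of 80 pairs, where 3.36% of the 119 pairs passed at either temperature. Both calls held whichever of the 12 libraries was left out. They also held with a block on the library number, which joins different pigs of both breeds and does not pair animals. For let-7-z, the 24-base let-7i form ending in TTAT, the share beside the 19-base let-7i-5p was 4.18, 4.76 and 5.10% in normal Bama and 9.05, 9.25 and 8.91% in normal Hezuo. It was 6.78, 5.67 and 4.44% in cold Bama and 9.39, 7.95 and 7.14% in cold Hezuo. Hezuo libraries lay above Bama libraries at both temperatures. The log2 ratio was 1.02 higher in Hezuo at normal temperature (SE 0.19, limma adjusted p = 0.00135) and 0.58 higher under cold (SE 0.19, limma adjusted p = 0.0802).

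Neither entry of the pair passed alone. At normal temperature let-7-z had 11.4 ± 2.38 CPM in Bama and 17.3 ± 1.12 in Hezuo (SD, n = 3; log2 difference 0.59, edgeR adjusted p = 0.138). The 19-base let-7i-5p had 233 ± 41.1 CPM in Bama and 173 ± 13.1 in Hezuo (-0.43, edgeR adjusted p = 0.0818). Set instead beside let-7-x, the 22-base form that makes up nearly all let-7i counts, let-7-z took 0.168, 0.150 and 0.213% in normal Bama and 0.300, 0.297 and 0.296% in normal Hezuo. Under cold it took 0.243, 0.189 and 0.172% in Bama and 0.241, 0.246 and 0.249% in Hezuo. On this basis the groups were apart at normal temperature and overlapped under cold, as described without a test. Let-7-x beside the 19-base entry was 0.26 higher in Hezuo at normal temperature (limma adjusted p = 0.391) and 0.28 higher under cold (limma adjusted p = 0.286).

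For miR-122-x, which ends in AT where miR-122-5p ends in T, the share was 1.74, 1.66 and 1.77% in cold Bama and 2.21, 2.40 and 2.54% in cold Hezuo. At normal temperature it was 1.76, 1.99 and 1.64% in Bama and 2.03, 1.99 and 1.94% in Hezuo. The groups were apart under cold and overlapped at normal temperature. Under cold the share of miR-122 in the listed counts was 46.8 to 50.03% in Bama and 42.8 to 48.3% in Hezuo, and its part in the ratio was not tested. The log2 ratio was 0.48 higher in Hezuo under cold (SE 0.10, limma adjusted p = 0.00575) and 0.15 higher at normal temperature (SE 0.10, limma adjusted p = 0.496). The difference between these, the same as the difference of the cold response, was 0.33 (SE 0.14, limma adjusted p = 0.81), so the breed difference was not shown to depend on temperature. MiR-122-x itself had 8451 ± 829 CPM in cold Bama and 10850 ± 1810 in cold Hezuo (SD, n = 3; log2 difference 0.36, edgeR adjusted p = 0.203). MiR-122-5p had a log2 difference of -0.12 (edgeR adjusted p = 0.75).

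More pairs leaned to the form in Hezuo than in Bama. At normal temperature 59 of the 80 pairs (73.8%) had a higher ratio in Hezuo, with a median log2 difference of 0.245, and under cold 57 (71.2%), with a median of 0.225. Over all 119 pairs of the table that share a start, which include these 80, 71.4% were higher with a median of 0.202, and 69.7% with a median of 0.211. The lean is thus near that of all such pairs. Without Hezuo normal 1 the median at normal temperature was 0.156 (70.2% higher), and without Bama normal 1 it was 0.178 (64.3% higher). Over all single libraries left out it ranged from 0.156 to 0.25 at normal temperature and from 0.153 to 0.282 under cold, where the lowest was without Bama cold 3. Of the 80, 44 were higher in Hezuo at both temperatures, 8 lower at both and 28 differed in sign. The 2 comparisons share no library, and across the 80 pairs their values had a Pearson's r of -0.0344 and a Spearman's rho of -0.0507, as a description. Across all 119 pairs r was 0.144 and rho 0.182. The cold comparisons showed no such lean: 55.0% of the pairs were higher under cold in Bama and 52.5% in Hezuo, with medians of 0.02 each.

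Groups that did not overlap were counted in the same way. At normal temperature 13 of the 80 ratios were higher in every Hezuo library than in every Bama one (16.2%, against 16.8% of the 119 pairs), and 2 were lower (2.5%, against 3.36%). Under cold 15 were higher (18.8%, against 21.0%) and 1 was lower (1.25%, against 1.68%). With cold, 2 were higher and 3 lower in Bama (4.2 and 8.4% of the 119), and 10 higher and 4 lower in Hezuo (10.9 and 6.72%). The pairs apart in the same direction at both temperatures were let-7-z, miR-151-y and miR-30-x, each higher in Hezuo. MiR-340-x was alone among the 80 in being apart in the same direction with cold in both breeds. How many of the 119 pairs were apart in both comparisons was not counted, so these pairs are named as a description only.

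MiR-151-y and miR-30-x show the size of these differences among abundant pairs. MiR-151-y, in which the last base of miR-151-3p is replaced, had 8.19, 9.10 and 10.4% in normal Bama and 11.7, 11.5 and 11.5% in normal Hezuo. The log2 difference was 0.37 (SE 0.13, limma adjusted p = 0.124), and 0.28 under cold (limma adjusted p = 0.254). MiR-30-x had 7.04, 7.80 and 7.56% in normal Bama and 9.30, 8.55 and 8.12% in normal Hezuo. Its log2 ratio was 0.23 higher (SE 0.11, limma adjusted p = 0.301), and 0.21 higher under cold (limma adjusted p = 0.343).

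**Figure D4:**
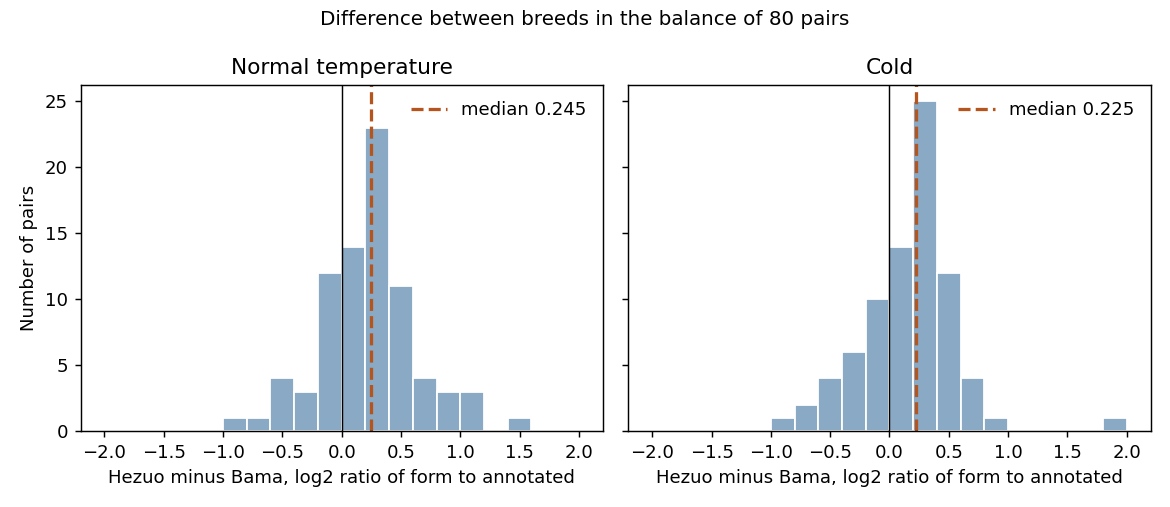
Number of pairs (y axis) by Hezuo minus Bama difference of the log2 ratio of form to annotated counts (x axis), at normal temperature and under cold, for 80 pairs. The dashed lines mark the medians, 0.245 and 0.225, right of the black line at 0.

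Summing entries of the same start kept 2 of 5 breed calls of annotated entries at normal temperature and 5 of 6 under cold. When all entries with the same first 16 bases were summed, the log2 differences of 102 annotated entries shifted by a median of 0.01 to 0.10, depending on the comparison. Such a sum also takes in any other annotated entry of that start, and scaling and spread were estimated anew. The largest shift, 1.0, was that of miR-141 for cold in Hezuo, where the sum takes in miR-200-y. At normal temperature 5 of the annotated entries passed in the breed comparison alone and 2 of these when summed. The other 3 kept their direction and most of their size: miR-151-3p went from -0.50 to -0.42 (edgeR adjusted p = 0.0455 and 0.0531), miR-450c-5p from -0.48 to -0.42 (edgeR adjusted p = 0.0455 and 0.0808) and miR-455-5p from -0.73 to -0.70 (edgeR adjusted p = 0.023 and 0.0543). Their forms were few beside them for miR-450c-5p (88 counts of miR-450-x beside 52487) and miR-455-5p (45 of miR-455-x beside 13951). Another annotated entry shares the start of miR-450c-5p and is part of its sum. Why these calls lost the threshold was not tested. Under cold 6 passed alone and 5 of these when summed, miR-340 among them. MiR-542-3p went from -0.53 to -0.44 (edgeR adjusted p = 0.0433 and 0.157). Its form had 165 counts (miR-542-y) beside 7941, and the median size of the shift in this comparison was 0.0985 over the 102 entries.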

How the data were processed

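Small RNA of pig liver was sequenced in 12 libraries. Per the labels' protocols, RNA was size-selected on a gel and ligated to adapters. The authors deposited raw counts of reads per miRNA entry, with TPM values beside them, in 1 table per the file headers. The TPM values were used only to derive library totals, of which the listed counts made up 84.3 to 88.2%. The sources used here name no aligner, database, counting rule or genome build, and 2 lines of the table were empty.

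Each form was set beside the annotated entry with the longest identical start, then the same miRNA number, then the first listed. Counts were tested with edgeR 4.0.16 (quasi-likelihood, TMM, filterByExpr by group, R 4.3.3) over all 460 entries that passed, in 12 libraries with 1 coefficient per group. The common biological coefficient of variation was 25.0%. Ratios, log2((form + 0.5)/(annotated + 0.5)), were tested with limma 3.58.1 (trend, robust) over all 119 same-start pairs. For both, p-values were adjusted by Benjamini-Hochberg in each of 6 comparisons, with a threshold of 0.05. SE is the standard error of a log2 difference. Both steps were run on simulated data for cold averaged over breeds only, so the breed comparisons were not checked in this way. For ratios, the counts of form and annotated entry were drawn independently and with a smaller spread than estimated.

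Named were the 12 most abundant forms, each called form or pair, the 5 highest and 5 lowest ratios, and up to 6 forms that are no plain extension. Others named were chosen after their values were seen. The members and lists were chosen with earlier results of these data known. Alternatives were DESeq2 1.42.0 (test or size factors), library totals, other filters and pseudocounts, entries of identical sequence or counts collapsed, same-start entries summed, limma without trend, a replicate block, and each library left out. The block was breed with library number for the cold comparisons. For the breed comparisons it was the number alone, which joins different pigs of both breeds and does not pair animals. No 2 libraries of a group agreed within sampling noise (chi-square per degree of freedom at least 36.9).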

Additional observations from a re-analysis of the deposited data

How the results depend on the processing

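The number of forms called for abundance stayed at 0 for cold in Hezuo and for the difference of cold responses under all settings run. For cold in Bama DESeq2 gave 1 (miR-199-x). Averaged over breeds, library totals gave 1 (miR-148-y), the replicate block 1 (miR-21-x) and DESeq2 4 (miR-148-y, miR-21-x, miR-340-x and miR-92-y). For the breeds at normal temperature (2 forms), DESeq2 size factors and no filter gave 1, library totals and the block 0. Under cold library totals gave 1 (miR-122-x). In the ratios, a mean count of at least 100 in both entries, which leaves 29 pairs of forms and drops miR-340-x, gave 0 for cold in Bama and averaged, and 2 for the breeds at each temperature (let-7-z with miR-103-y or miR-122-x). The block gave 2 for cold in Bama (miR-127-y and miR-340-x) and 0 averaged. Limma without trend gave 2 for the breeds under cold (miR-122-x and miR-151-x). The cause was not tested. The share of all entries or pairs called under each of these settings is not given here, so these counts cannot be set against it.

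Leaving out 1 library, the counts for abundance ranged from 0 to 0 for cold in Bama, cold in Hezuo and the difference of responses, 0 to 2 averaged, 0 to 2 for the breeds at normal temperature and 0 to 1 under cold. For ratios they ranged from 0 to 1 in each breed, 0 to 3 averaged, 0 to 0 for the difference, 1 to 7 for the breeds at normal temperature (7 without Bama normal 2) and 1 to 2 under cold. For these fits too the share of all entries or pairs called is not given here. Where that leaves a group with 2 libraries, the spread is pooled over groups. With same-start entries summed, let-7i-5p turned from -0.01 to 0.14 for cold in Hezuo, from -0.13 to 0.0269 averaged and from -0.19 to 0.17 for the breeds under cold. That sum holds let-7-x (596603 counts beside 19007) and another annotated entry of the same start. It therefore does not describe let-7i-5p with its forms alone. MiR-30a-5p turned from -0.09 to 0.0192 for the breeds under cold, and miR-26a from -0.00329 to 0.0335 at normal temperature. None of these passed.

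Same-numbered libraries of a breed correlated in their deviations at 0.00785 to 0.168, and differently numbered ones at -0.145 to 0.0851. With 3 libraries per group these values cannot show whether a number is 1 animal. The numbers were not taken to pair pigs. Library totals moved the median log2 difference of the 80 forms from -0.05 to 0.13 for cold in Hezuo and from 0.18 to 0.06 for the breeds at normal temperature. Ratios need no such scaling. Depth limits low forms most: 64 of 144 could not be tested.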
